A study of Drosophila melanogaster with 9 samples.

Results

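Testes in which *SRPK* was knocked down by RNAi were set against control testes, gene by gene across the transcriptome. Both groups were chosen by their sample labels, 3 *SRPK* RNAi libraries and 3 control libraries out of the 9 libraries of a study of *Drosophila melanogaster* spermatogenesis. Each library held total RNA from whole testes, 100 pairs per sample, dissected from adult males 1 to 3 days old. Ribosomal RNA was depleted before strand-specific sequencing, so noncoding RNA was kept along with mRNA. In *SRPK* RNAi males the hairpin was driven by bam-GAL4, which is active in late spermatogonia and spermatocytes, so germline stem cells and the somatic cells of the testis lie outside the driver's expression. Controls carried bam-GAL4 as the parental stock or were siblings, and the text used here does not say which of them, nor which *SRPK* hairpin line, gave the sequenced RNA. A difference in genetic background between the groups can therefore not be told apart from the knockdown. The other 3 libraries came from *U2af38* RNAi testes with the same driver and age, and they share one estimate of the spread between replicates with the 6 libraries described here.

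SRPK is a serine/arginine protein kinase. Kinases of this family phosphorylate the arginine/serine-rich (RS) domains of SR proteins, which lets these splicing factors enter the nucleus and move out of nuclear speckles to sites of splicing. SR proteins bind exons and help to recruit U1 and U2 snRNPs to the splice sites. In the *Drosophila* testis, spermatogonia divide by mitosis, spermatocytes then grow and transcribe most of the genes that spermatids will need, and after meiosis transcription nearly stops while round spermatids elongate into sperm.

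*SRPK* (FBgn0286813, dm6 chromosome 2R from 15380724 to 15387851) was read at 69.0, 64.5 and 68.1 CPM in *SRPK* RNAi testes, against 274, 248 and 281 CPM in control testes. CPM (counts per 1000000 fragments) is a gene's fragment count relative to the scaled size of its library and takes no account of gene length, so levels are compared here between libraries and not between genes. The RNAi testes kept 25.1% of the control level (log2 fold change -1.99, standard error 0.07, edgeR adjusted p = 4.76e-09, n = 3 each), with no overlap between the groups. Its paralog *Srpk79D* stood at 339, 328 and 344 CPM in *SRPK* RNAi and 306, 297 and 338 CPM in control (log2 fold change 0.10, standard error 0.06, edgeR adjusted p = 0.197), which did not pass the threshold of 0.05. *Doa*, another kinase of SR proteins, did not pass either, with 120, 114 and 123 CPM in *SRPK* RNAi and 109, 108 and 115 CPM in control. *Tnpo-SR*, the importin that carries phosphorylated SR proteins into the nucleus, rose to 23.5, 21.8 and 21.6 CPM in *SRPK* RNAi, against 16.9, 14.2 and 14.7 CPM in control (log2 fold change 0.55, edgeR adjusted p = 0.000232).

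**Figure D1:**
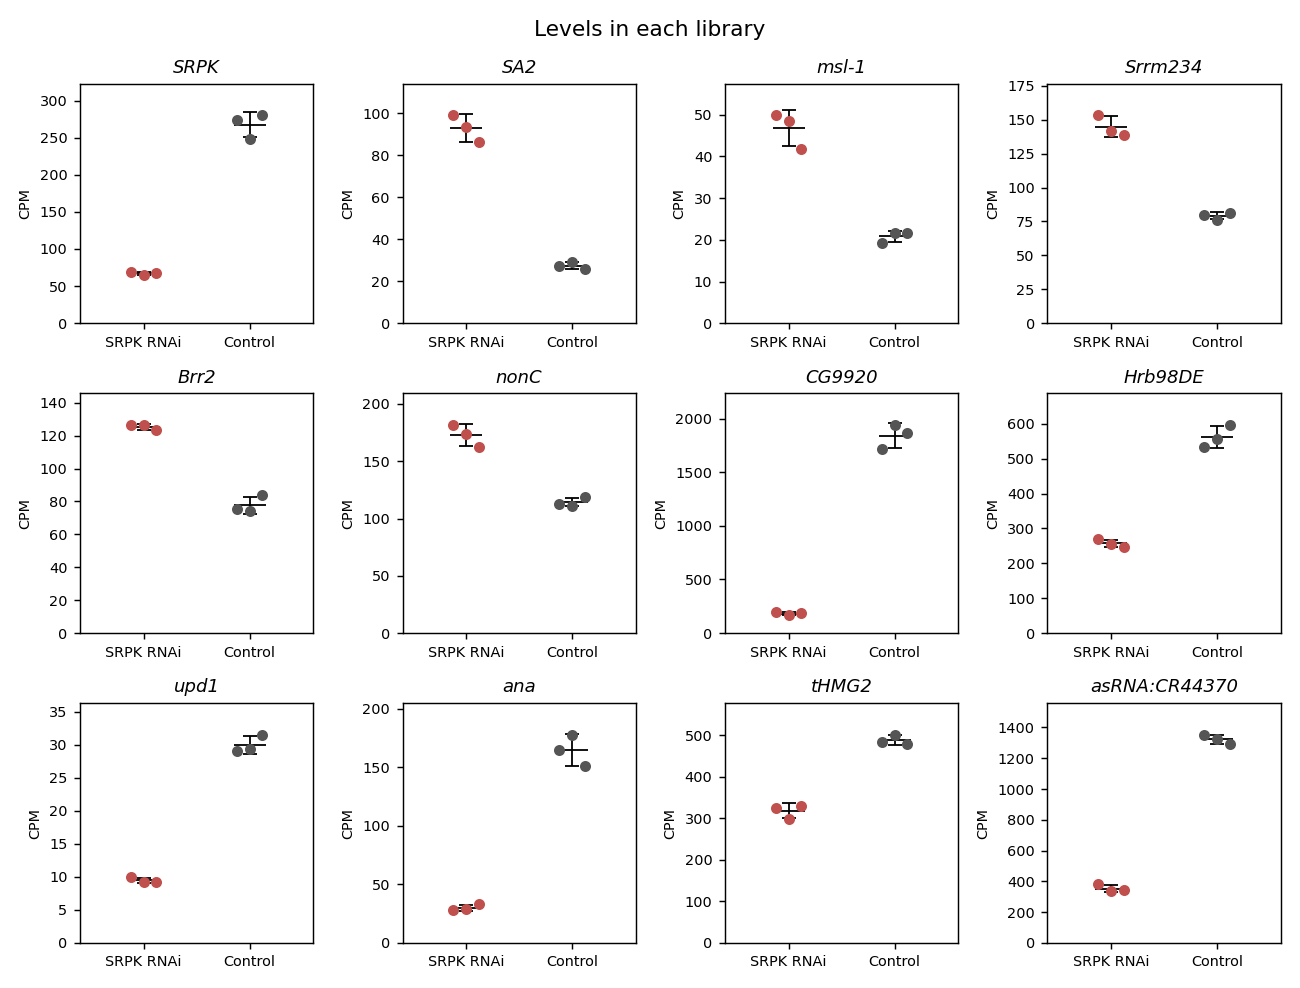
Level of 12 genes in CPM (linear axis from 0, 1 panel per gene), with the *SRPK* RNAi libraries as points on the left and the control libraries on the right, and bars at the group mean ± SD. *SRPK* lies at 64.5 to 69.0 CPM in *SRPK* RNAi and at 248 to 281 CPM in control, and none of the 12 genes overlaps between the groups.

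Between 20908187 and 30002574 fragments were counted per library over the 6 libraries. The first principal component of these 6 libraries (57.8% of the variance) separated *SRPK* RNAi from control, and the second (26.4%) set *SRPK* RNAi replicate 1 and control replicate 2 apart from the rest. In the same pair of libraries, markers of the accessory gland and ejaculatory duct, organs that adjoin the testis, were low. Their summed level was 131, 964 and 1650 CPM in *SRPK* RNAi and 776, 172 and 665 CPM in control, so both groups held gland-rich and gland-poor dissections. Of 21 such markers tested, 0 were higher and 1 was lower in *SRPK* RNAi. Control replicate 2 also had 1.92% of its fragments on ribosomal RNA symbols, against 0.773 to 0.928% in the 3 *SRPK* RNAi libraries and 0.796 to 0.821% in the other two control libraries. Counts were therefore also taken without this pair of libraries, an alternative chosen after seeing the data. Both groups expressed testis markers: the post-meiotic cup and comet genes summed to 7847 to 9080 CPM in *SRPK* RNAi and 9381 to 10020 CPM in control.

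Of 14941 genes with enough fragments to test, 3032 (20.3%) were higher and 3155 (21.1%) lower in *SRPK* RNAi at an edgeR adjusted p under 0.05, and 41.4% changed in either direction. The counts of list members given below are to be read against these shares. The shares also moved with level: of 2427 protein-coding genes of 100 CPM and over, 17.5% were higher and 34.7% lower. The lists were not matched to other genes by level. Genes were filtered over all 9 libraries, so genes read mainly in *U2af38* RNAi could enter. With the 2 genotypes alone 12693 genes were tested, of which 2922 were higher and 2888 lower. Most changes were small. At least 2-fold changes were seen in 569 genes that rose (3.81%) and 802 that fell (5.37%). The groups did not overlap at 7541 genes (50.5%), and the median log2 fold change over all tested genes was 0.01. Every fold change is set against the typical gene of its library. When libraries were scaled by their totals alone, the median moved to 0.12 and the split became 4336 higher and 2263 lower. When libraries were scaled on ribosomal protein genes, the median moved to -0.06 and the split became 2106 higher and 3656 lower. In whole testes, fewer cells of a type and less RNA per cell cannot be told apart.

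The largest rises off the Y chromosome were in genes that control testes barely transcribed. *CG32318* (chromosome 3L from 1246073 to 1246923) was read at 4.13, 3.3 and 3.56 CPM in *SRPK* RNAi and at 0, 0 and 0 CPM in control. Against a floor of 3 fragments per library, which covers counting error only, that is at least 19.3-fold higher. *kek3*, which encodes a transmembrane protein with leucine-rich repeats, stood at 25.0, 23.2 and 21.6 CPM in *SRPK* RNAi, against 1.6, 1.14 and 1.14 CPM in control (log2 fold change 4.17, standard error 0.12, edgeR adjusted p = 1.95e-09). It was low in every control library and higher in every knockdown library. *CG13502* showed the same pattern, with 22.1, 20 and 19.8 CPM in *SRPK* RNAi and 1.00, 0.455 and 0.531 CPM in control (log2 fold change 4.95, standard error 0.21, edgeR adjusted p = 2.91e-08). *CG4267* reached 19.1, 18.1 and 15.8 CPM in *SRPK* RNAi, against 1.70, 1.14 and 1.92 CPM in control. *Amy-d*, the distal amylase gene, stood at 90.1, 56.2 and 54.7 CPM in *SRPK* RNAi and 5.31, 3.47 and 2.04 CPM in control, but it has a near-identical copy, *Amy-p* (log2 fold change 1.47), and the division of fragments between them is uncertain.

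Other members of the 15 largest rises belong to gene families known from other tissues. They include *Or22b*, an odorant receptor with a near copy in *Or22a*, at 3.28, 2.37 and 3.02 CPM in *SRPK* RNAi and 0.150, 0 and 0.0817 CPM in control. *Npc2d*, of the Niemann-Pick type C2 family of sterol-binding proteins, had 6.28, 7.6 and 6.94 CPM in *SRPK* RNAi, against 0.451, 0.682 and 0.858 CPM in control. *dmrt93B*, a transcription factor of the doublesex family, had 5.63, 4.81 and 3.92 CPM in *SRPK* RNAi and 0.601, 0.227 and 0.408 CPM in control. *Mur18B* rested on a single library, with 0.121, 7.45 and 0.180 CPM in *SRPK* RNAi and 0.100, 0 and 0 CPM in control, and without *SRPK* RNAi replicate 2 its edgeR adjusted p was 0.146. The remaining 6, *CG34436*, *CG31683*, *CG33307*, *CG42525*, *CG15554* and *CG13033*, lay between 1.5 and 10.5 CPM in *SRPK* RNAi libraries and at no more than 0.401 CPM in control libraries.

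The largest falls included genes that control testes expressed strongly. *CG9920* (chromosome 3R from 14097293 to 14098080) fell to 195, 165 and 185 CPM in *SRPK* RNAi, against 1717, 1945 and 1870 CPM in control. This left 9.85% of the control level (log2 fold change -3.34, standard error 0.08, edgeR adjusted p = 2.41e-10), a deeper loss than that of *SRPK* itself. *ana*, which encodes a secreted glycoprotein known from the larval brain, stood at 27.8, 28.7 and 32.9 CPM in *SRPK* RNAi and 165, 178 and 151 CPM in control, or 18.1% of control (log2 fold change -2.47, standard error 0.09, edgeR adjusted p = 6.29e-09). The other 13 of the 15 largest falls averaged under 20 CPM in either group. *CG6055* had 2.71, 1.90 and 2.44 CPM in *SRPK* RNAi, against 14.2, 14.7 and 14.3 CPM in control. *CAH9*, a carbonic anhydrase, had 1.05, 1.2 and 1.76 CPM in *SRPK* RNAi and 8.57, 8.07 and 8.13 CPM in control. *TpnC4*, a muscle troponin C, had 1.62, 0.621 and 0.947 CPM in *SRPK* RNAi and 4.66, 7.05 and 6.86 CPM in control. *Fbp1*, a fat body receptor for larval serum proteins, had 0.203, 1.05 and 4.01 CPM in *SRPK* RNAi and 6.32, 11.8 and 23.2 CPM in control. The others were *CG9294*, *CG7402*, *CG18258*, *CG44044*, *Osi23*, *CG14275*, *fj*, *CG13744* and *Osi13*.

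Many genes of the splicing machinery were higher in *SRPK* RNAi. Of 40 core spliceosome genes tested, 23 rose (57.5%, against 20.3% of all genes) and 4 fell, with a median log2 fold change of 0.27. Their summed level was 1948, 1869 and 1796 CPM in *SRPK* RNAi and 1584, 1549 and 1577 CPM in control, with no overlap. Without the gland-poor libraries 16 rose and 4 fell. The largest rises among them were in ATPases that remodel the spliceosome and in a U1 snRNP protein. *Brr2*, the helicase that unwinds U4 from U6 snRNA, stood at 126, 127 and 123 CPM in *SRPK* RNAi, against 75.4, 74.2 and 83.8 CPM in control (log2 fold change 0.69, standard error 0.06, edgeR adjusted p = 7.9e-06). *Prp39*, a U1 snRNP component, stood at 164, 158 and 153 CPM in *SRPK* RNAi and 96.8, 92.8 and 101 CPM in control (log2 fold change 0.70, edgeR adjusted p = 9.96e-07). *l(2)37Cb* and *Prp5*, both RNA helicases of the spliceosome, rose by log2 fold changes of 0.78 and 0.76 over control.

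SR proteins, the substrates of the kinase, changed less. Of 11 tested, 4 rose, 1 fell and 6 did not pass (median log2 fold change 0.14). *B52*, an SR protein also known as SRp55, rose to 137, 124 and 114 CPM in *SRPK* RNAi, against 93.6, 86.0 and 84.2 CPM in control (log2 fold change 0.51, edgeR adjusted p = 0.000142). *tra2*, an RS-domain splicing activator, had 121, 110 and 94.4 CPM in *SRPK* RNAi and 89.4, 81.4 and 76.4 CPM in control (log2 fold change 0.40, edgeR adjusted p = 0.00335). Of 14 SR-like proteins, which carry RS domains but no canonical SR protein layout, 6 rose and 0 fell. *Srrm234*, of the family of SR-related matrix proteins, had the largest rise in this list, to 154, 142 and 139 CPM in *SRPK* RNAi, against 79.7, 76.3 and 81.3 CPM in control (log2 fold change 0.87, standard error 0.06, edgeR adjusted p = 5.26e-07). Its relative *Srrm1* rose by 0.63.

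Of 25 hnRNPs and other splicing regulators 4 were higher (16%) and 6 lower (24%), near the 20.3% and 21.1% of all genes. By library totals 10 were higher and 2 lower, and without *SRPK* RNAi replicate 3 there were 7 higher and 6 lower. The largest fall was that of *Hrb98DE*, an hnRNP of the A/B type, to 268, 256 and 246 CPM in *SRPK* RNAi, against 535, 555 and 597 CPM in control. It kept 45.7% of the control level (log2 fold change -1.13, standard error 0.06, edgeR adjusted p = 1.87e-07). *how*, a KH-domain protein of the STAR family, fell to 53, 51.4 and 52.9 CPM in *SRPK* RNAi and had 67.3, 73.5 and 71.6 CPM in control (log2 fold change -0.43, edgeR adjusted p = 0.00029). *Rbp9*, an ELAV-type RNA-binding protein, stood at 282, 242 and 228 CPM in *SRPK* RNAi and 368, 334 and 281 CPM in control (log2 fold change -0.39, edgeR adjusted p = 0.00818).

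The exon junction complex marks spliced junctions, and nonsense-mediated decay removes mRNAs with a premature stop codon. Of 14 genes of this list, 10 rose (71.4%, against 20.3% of all genes), 0 fell and 4 did not pass. The list also includes *Gadd45*, which stands in the stress response list too. *Pnn*, *Acn* and *RnpS1* are counted in it and among the SR or SR-like proteins. The median log2 fold change was 0.32 and all 14 values lay above 0. Their summed level was 1139, 1075 and 1071 CPM in *SRPK* RNAi, against 857.7, 808.7 and 878.3 CPM in control. Without the gland-poor libraries 8 rose. *nonC*, the Smg1 kinase that phosphorylates Upf1, stood at 182, 173 and 163 CPM in *SRPK* RNAi and 113, 111 and 119 CPM in control (log2 fold change 0.59, standard error 0.06, edgeR adjusted p = 9.84e-06). *Upf1*, the helicase of the pathway, stood at 149, 135 and 137 CPM in *SRPK* RNAi and 99.2, 91.4 and 100 CPM in control (log2 fold change 0.53, edgeR adjusted p = 7.18e-05). *btz*, a core component of the junction complex, rose by 0.54 and *Upf2* by 0.41.

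**Figure D2:**
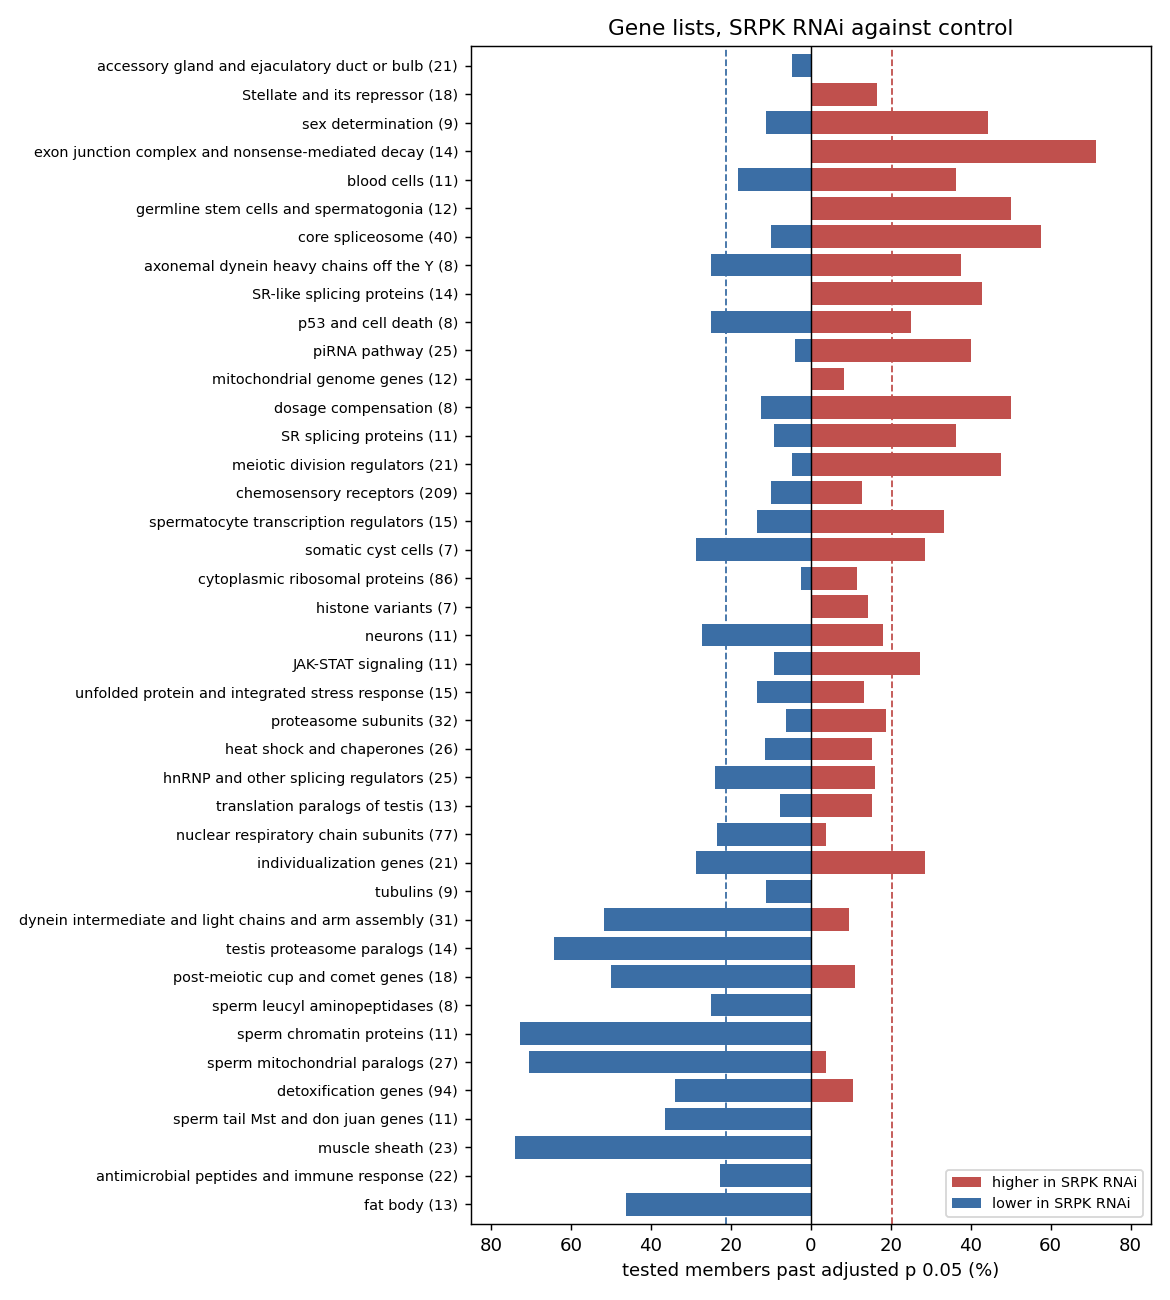
Share of the tested members of each gene list (rows) that were lower, drawn to the left, or higher, drawn to the right, in *SRPK* RNAi than in control, in percent at an edgeR adjusted p under 0.05, with the number tested in brackets and dashed lines at the shares of all genes (21.1% lower, 20.3% higher). The core spliceosome (57.5% higher) and the exon junction complex list (71.4% higher) lie to the right, and sperm mitochondrial paralogs (70.4% lower) and sperm chromatin proteins (72.7% lower) to the left.

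Of 12 markers of germline stem cells and spermatogonia, 6 rose (50%, against 20.3% of all genes), 0 fell and 6 did not pass, with a median log2 fold change of 0.27 and summed levels of 875.8, 782.4 and 789.0 CPM in *SRPK* RNAi, against 663.1, 644.4 and 684.7 CPM in control. Without the gland-poor libraries 4 rose, and scaled on ribosomal protein genes 3 did. *aub*, a Piwi-family protein, stood at 55.3, 55.0 and 45.5 CPM in *SRPK* RNAi and 36.3, 35.2 and 29.9 CPM in control (log2 fold change 0.62, edgeR adjusted p = 0.000228). *vas*, the germline DEAD-box helicase, stood at 37.4, 28.6 and 27.0 CPM in *SRPK* RNAi and 21, 23.5 and 19.5 CPM in control (log2 fold change 0.54, edgeR adjusted p = 0.0033). *chinmo*, a BTB transcription factor, stood at 325, 283 and 284 CPM in *SRPK* RNAi and 224, 214 and 212 CPM in control (log2 fold change 0.46, edgeR adjusted p = 0.000141). The piRNA pathway, which silences transposons in the germline, had 10 of 25 genes higher (40%, against 20.3% of all genes) and 1 lower. This list also holds *aub* and *vas*, so its count is not separate from that of the markers above. Its largest rises were in *shu* (0.66), *SoYb* (0.63) and *qin* (0.62), which act in piRNA production. The bulk count does not separate early germ cells from the rest, and the share of each stage was not measured.

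Regulators of the spermatocyte program moved in both directions. Of 15 tested, 5 rose and 2 fell, and 2 rose without the gland-poor libraries and 8 without *SRPK* RNAi replicate 3. *mia*, a testis-specific paralog of a TFIID subunit, rose to 74.6, 73.3 and 71.7 CPM in *SRPK* RNAi, against 43.2, 44.3 and 44.4 CPM in control (log2 fold change 0.74, standard error 0.08, edgeR adjusted p = 2.67e-05). *tomb*, a subunit of the testis meiotic arrest complex, rose by 0.47. *tbrd-3*, a testis bromodomain protein, fell to 23.4, 22.4 and 22 CPM in *SRPK* RNAi, against 39.9, 39.3 and 38.6 CPM in control (log2 fold change -0.80, standard error 0.08, edgeR adjusted p = 1.29e-05). Of 6 factors known to act on the giant Y transcripts after transcription, 4 rose and 1 fell, and 2 rose without the gland-poor libraries or without control replicate 2. *Rbp4*, an RNA-binding protein of spermatocytes, stood at 148, 126 and 122 CPM in *SRPK* RNAi and 112, 98.8 and 96.5 CPM in control (log2 fold change 0.37), and *maca*, another RNA-binding protein, fell to 75.5, 72.6 and 76.2 CPM in *SRPK* RNAi, against 89.7, 97.3 and 96.4 CPM in control (log2 fold change -0.34).

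Meiotic division regulators were higher more often than lower, with 10 of 21 up (47.6%, against 20.3% of all genes) and 1 down. Without the gland-poor libraries 6 were up. The largest change was in *SA2* (chromosome 3L from 1434336 to 1437872), the gene of the Stromalin in Meiosis protein that holds homologous chromosomes together in male meiosis, where crossing over is absent. It stood at 99.2, 93.7 and 86.1 CPM in *SRPK* RNAi, against 27.3, 29.0 and 26 CPM in control, which is 339% of the control level (log2 fold change 1.76, standard error 0.08, edgeR adjusted p = 3.08e-08). Genes of sister chromatid cohesion in meiosis moved in opposite directions. *ord* fell to 91.0, 87.4 and 87.7 CPM in *SRPK* RNAi, against 145, 141 and 144 CPM in control (log2 fold change -0.69, standard error 0.05, edgeR adjusted p = 6.81e-07), while *solo*, at lower counts, rose to 4.50, 4.15 and 3.74 CPM in *SRPK* RNAi, against 1.85, 2.78 and 2.53 CPM in control (log2 fold change 0.79, edgeR adjusted p = 0.00355). *cort*, an activator of the anaphase-promoting complex known from female meiosis, had 2.43, 1.86 and 3.34 CPM in *SRPK* RNAi and 1.25, 0.909 and 0.735 CPM in control.

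Several lists of genes whose products build the sperm had more members lower than higher in *SRPK* RNAi, and others were split or mostly not called. Of 27 mitochondrial paralogs used in sperm, 19 fell (70.4%, against 21.1% of all genes) and 1 rose, with a median log2 fold change of -0.31. They summed to 7537, 8206 and 8506 CPM in *SRPK* RNAi, against 9934, 10470 and 11110 CPM in control. *UQCR-14L*, a testis paralog of a complex III subunit, fell to 54.8, 70.0 and 69.3 CPM in *SRPK* RNAi, against 115, 135 and 130 CPM in control (log2 fold change -0.97, standard error 0.11, edgeR adjusted p = 3.94e-05). *ND-51L2*, a paralog of a complex I subunit, stood at 55.5, 58.1 and 61.7 CPM in *SRPK* RNAi and 87.8, 89.4 and 96.0 CPM in control (log2 fold change -0.64, edgeR adjusted p = 1.7e-05). The respiratory subunits encoded in the nucleus as a whole, a list that includes paralogs of this kind, had 18 of 77 lower (23.4%, near the 21.1% of all genes) and 3 higher, and their direction turned with the scaling, to 10 lower and 17 higher by library totals. Without control replicate 2, or without both gland-poor libraries, 11 were lower. Of 12 genes of the mitochondrial genome 1 was higher and 0 lower, a call that was lost without both gland-poor libraries, while 4 were higher without control replicate 3.

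Sperm chromatin proteins take part in the replacement of histones after meiosis. Of 11 tested, 8 fell (72.7%, against 21.1% of all genes) and 0 rose (median log2 fold change -0.29). Without the gland-poor libraries 6 fell, and without *SRPK* RNAi replicate 2 alone 5 fell. *tHMG2*, an HMG-box protein of this transition, stood at 326, 298 and 331 CPM in *SRPK* RNAi, against 483, 502 and 479 CPM in control (log2 fold change -0.62, standard error 0.05, edgeR adjusted p = 5.41e-06), and its relative *tHMG1* at 400, 355 and 392 CPM in *SRPK* RNAi and 490, 484 and 463 CPM in control. *ProtB*, a protamine-like protein with the near copy *ProtA*, had 718, 659 and 857 CPM in *SRPK* RNAi and 929, 944 and 987 CPM in control (log2 fold change -0.36, edgeR adjusted p = 0.00477). Among 11 sperm tail genes of the Mst and don juan families, 4 fell (36.4%), 0 rose and 7 did not pass. The share that fell lay over the 21.1% of all genes but near the 34.7% of protein-coding genes of 100 CPM and over. Without *SRPK* RNAi replicate 2 there were 8 lower. *dj*, a sperm tail protein, had 1304, 1430 and 1487 CPM in *SRPK* RNAi and 1886, 1919 and 1948 CPM in control (log2 fold change -0.45, edgeR adjusted p = 0.000155).

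The cup and comet genes are among the few that are transcribed after meiosis. Of 18 tested, 9 fell (50%, against 21.1% of all genes) and 2 rose (median log2 fold change -0.18). With single libraries left out the number lower lay between 4, without control replicate 3, and 12, without *SRPK* RNAi replicate 3. *d-cup* fell to 43.8, 48.3 and 54.6 CPM in *SRPK* RNAi, against 77.3, 80.8 and 81.9 CPM in control (log2 fold change -0.71, standard error 0.08, edgeR adjusted p = 2.45e-05), while *s-cup* rose to 17.7, 17.8 and 19.7 CPM in *SRPK* RNAi, against 13.5, 12.1 and 12.2 CPM in control (log2 fold change 0.54, edgeR adjusted p = 0.000374). Testis paralogs of proteasome subunits had 9 of 14 lower (64.3%, against 21.1% of all genes) and 0 higher. Scaled by library totals, 5 of the cup and comet genes and 4 of the testis proteasome paralogs were lower. The proteasome subunits of all cells had 6 of 32 higher (18.75%, near the 20.3% of all genes) and 2 lower. They had 3 higher and 10 lower when scaled on ribosomal protein genes, and 10 higher without *SRPK* RNAi replicate 3. Of 86 cytoplasmic ribosomal proteins 10 were higher and 2 lower. Their count of higher members was 4 without the gland-poor libraries or without control replicate 1, and 53 by library totals. Of 8 sperm leucyl aminopeptidases 2 were lower, with 0 lower without the gland-poor libraries and 6 without *SRPK* RNAi replicate 3, and of 9 tubulins 1 was lower. Individualization genes, which act when spermatids separate from each other, were split, with 6 of 21 higher (2 without the gland-poor libraries) and 6 lower (3 without control replicate 3). *Vps13*, a lipid transfer protein, rose to 390, 355 and 370 CPM in *SRPK* RNAi, against 254, 248 and 279 CPM in control (log2 fold change 0.51, edgeR adjusted p = 3.45e-05), and *ntc*, an F-box protein that acts upstream of caspases, fell to 358, 382 and 422 CPM in *SRPK* RNAi, against 501, 494 and 559 CPM in control (log2 fold change -0.42, edgeR adjusted p = 0.0028).

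Of 31 axonemal dynein intermediate chains, light chains and arm assembly factors, 16 fell (51.6%, against 21.1% of all genes) and 3 rose. The count of lower members went down to 7 when libraries were scaled by their totals and to 9 without the gland-poor libraries. *robl37BC*, a light chain of the roadblock family, stood at 115, 124 and 129 CPM in *SRPK* RNAi and 172, 172 and 181 CPM in control (log2 fold change -0.51, edgeR adjusted p = 0.00089), and *l(2)41Ab*, of the same list, fell by 0.76 on the log2 scale. *ODA-Dnal1*, an outer arm light chain, rose to 5.83, 5.74 and 6.13 CPM in *SRPK* RNAi, against 1.10, 1.71 and 0.776 CPM in control (log2 fold change 2.33, standard error 0.26, edgeR adjusted p = 2.68e-05). The 8 heavy chains off the Y, with a median exon length of 14080 bases, had 3 higher and 2 lower, and both without control replicate 3 and by library totals 6 were higher and 1 lower. The difference between the dynein lists was not tested. *Dnah3* stood at 933, 948 and 1058 CPM in *SRPK* RNAi and 647, 630 and 868 CPM in control (log2 fold change 0.45, edgeR adjusted p = 0.0115), whereas *Dhc93AB* fell to 3.60, 3.26 and 4.24 CPM in *SRPK* RNAi, against 11.2, 10.5 and 11.3 CPM in control (log2 fold change -1.58, standard error 0.14, edgeR adjusted p = 5.87e-06). The 8 Y-linked genes with gigantic introns were all lower (median log2 fold change -1.14), further from 0 than the median of any sperm list off the Y given here.

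Gene length moved with these results. Exon lengths had a median of 843 bases in the sperm mitochondrial list, 1053 in the sperm chromatin list and 1180 in the testis proteasome list, against 1960 in the core spliceosome and 2466 in the exon junction complex list. Over the 8736 protein-coding genes that averaged 5 CPM or more, 26.6% were higher and 24.3% lower. Of the 145 with up to 500 bases of exon, 2.76% were higher and 35.2% lower (22.8 to 55.9% lower with single libraries left out), and of the 1361 from there to 1000 bases 9.92% were higher and 38% lower. The shares were 23.1% higher and 24.6% lower between 1000 and 2000 bases, and 32.3% higher and 20% lower between 2000 and 4000 bases. Among 1787 genes of over 4000 bases, 38.6% were higher and 18.8% lower. The balance in the middle classes moved with the scaling. On ribosomal protein genes 22.1% were higher and 24.5% lower between 2000 and 4000 bases. By library totals 37.6% were higher and 15.8% lower between 1000 and 2000 bases. Under both scalings genes of up to 1000 bases stayed more often lower and genes of over 4000 bases more often higher. Longer genes carry more fragments at a given number of molecules, and the part of this in the shares was not tested. Genes without introns were lower more often than genes with them: 14.8% of 1125 intronless genes were higher and 39.9% lower, against 28.4% higher and 22% lower of 7611 genes with introns. Scaled on ribosomal protein genes, 18.6% of the genes with introns were higher and 27% lower, against 9.42% and 44.4% of the intronless ones. By library totals the genes with introns had 41.9% higher and 13.7% lower, and the intronless ones 22.8% and 29.1%. Between 500 and 1000 bases the intronless genes still had 53.8% lower, against 31.5% of the genes with introns. The part of length in the sperm and splicing lists was not tested.

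**Figure D3:**
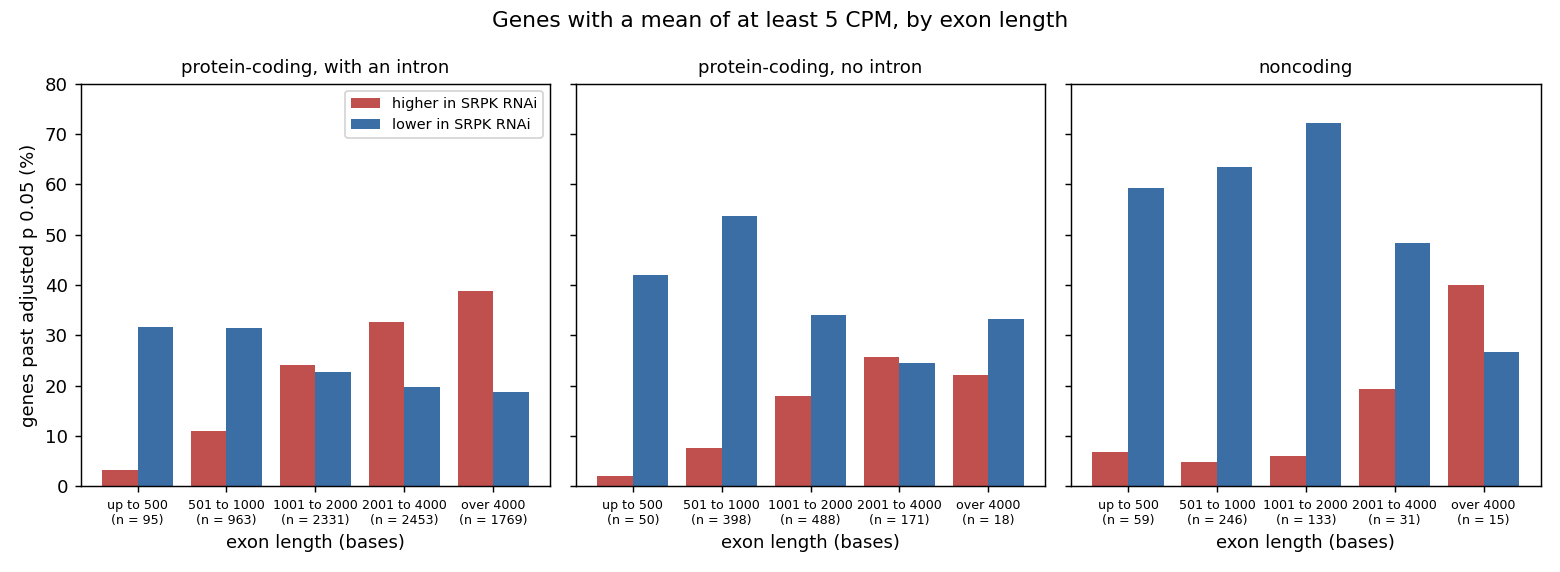
Share of genes at 5 CPM or more that were higher or lower in *SRPK* RNAi than in control (percent, edgeR adjusted p under 0.05), by exon length in bases, in panels for protein-coding genes with introns, protein-coding genes without introns and noncoding RNA genes. Among genes with introns the share of higher genes runs from 3.16% at up to 500 bases to 38.8% at over 4000 bases, and noncoding genes of up to 2000 bases were mostly lower.

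Annotated noncoding RNAs were lower in *SRPK* RNAi more often than genes at large. Of 484 annotated noncoding RNA genes at 5 CPM or more, 306 (63.2%) were lower and 36 (7.44%) higher, with a median log2 fold change of -0.59, and 58.1% were lower without the gland-poor libraries. All tested noncoding RNA genes together summed to 16650, 17350 and 17880 CPM in *SRPK* RNAi and 22800, 23330 and 22780 CPM in control. Genes named as long noncoding RNAs (65.4% of 355 lower) and as antisense RNAs (62.2% of 119 lower) had similar shares. Of 440 such genes on the large autosomal arms 67.0% were lower (median log2 fold change -0.67), while of 41 on the X chromosome 24.4% were lower (median 0.03). The following examples were chosen after their values were seen. *asRNA:CR44370* (chromosome 2R from 15226938 to 15232665) stood at 380, 337 and 341 CPM in *SRPK* RNAi, against 1354, 1323 and 1295 CPM in control (log2 fold change -1.91, standard error 0.06, edgeR adjusted p = 4.76e-09). *lncRNA:CR9284* (chromosome 2R from 21803402 to 21804338) stood at 1321, 1487 and 1669 CPM in *SRPK* RNAi and 2493, 2646 and 2821 CPM in control (log2 fold change -0.83, edgeR adjusted p = 2.07e-05). *lncRNA:CR45982* fell to 32.1, 34.0 and 40.1 CPM in *SRPK* RNAi, against 114, 117 and 121 CPM in control. Some abundant noncoding RNAs went the other way. *hpRNA:CR18854*, a hairpin RNA gene, rose to 231, 226 and 224 CPM in *SRPK* RNAi, against 162, 156 and 164 CPM in control (log2 fold change 0.50, edgeR adjusted p = 7.91e-06), and *lncRNA:CR42767* rose by 0.42 and *lncRNA:CR32690* by 0.35.

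Protein-coding genes on the X chromosome were lower less often than those on the autosomes. At a mean of at least 5 CPM, 410 of 1405 X-linked genes were higher (29.2%) and 162 lower (11.5%), against 26.2% higher and 26.7% lower of 7240 genes on the large autosomal arms. Among genes of at least 100 CPM, 27.9% of 290 X-linked genes were higher and 8.28% lower, against 15.9% higher and 38.6% lower of 2105 autosomal genes. The direction among these autosomal genes turned with the scaling: by library totals 53.1% of the X-linked genes were higher and 3.10% lower, against 30.6% higher and 24.7% lower of the autosomal ones. The scaling also moved the shares at 5 CPM or more. Scaled by library totals, 5.12% of the X-linked and 17.6% of the autosomal genes were lower, and scaled on ribosomal protein genes 15.9% of the X-linked and 31.7% of the autosomal genes. Without the gland-poor libraries 7.26% of the X-linked and 21.3% of the autosomal genes were lower. These shares are descriptions, and the difference between chromosomes was not tested. Among dosage compensation genes, which raise the output of the male X in somatic cells, 4 of 8 rose and 1 fell. *msl-1*, the scaffold of the MSL complex, rose to 50, 48.4 and 41.9 CPM in *SRPK* RNAi, against 19.4, 21.6 and 21.6 CPM in control (log2 fold change 1.16, standard error 0.08, edgeR adjusted p = 9.03e-07). It was the only one of the 8 still called without the gland-poor libraries, where the edgeR adjusted p was 0.0611 for *msl-3*, 0.0805 for the helicase *mle* and 0.149 for *lncRNA:roX2*, an RNA of the complex.

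**Figure D4:**
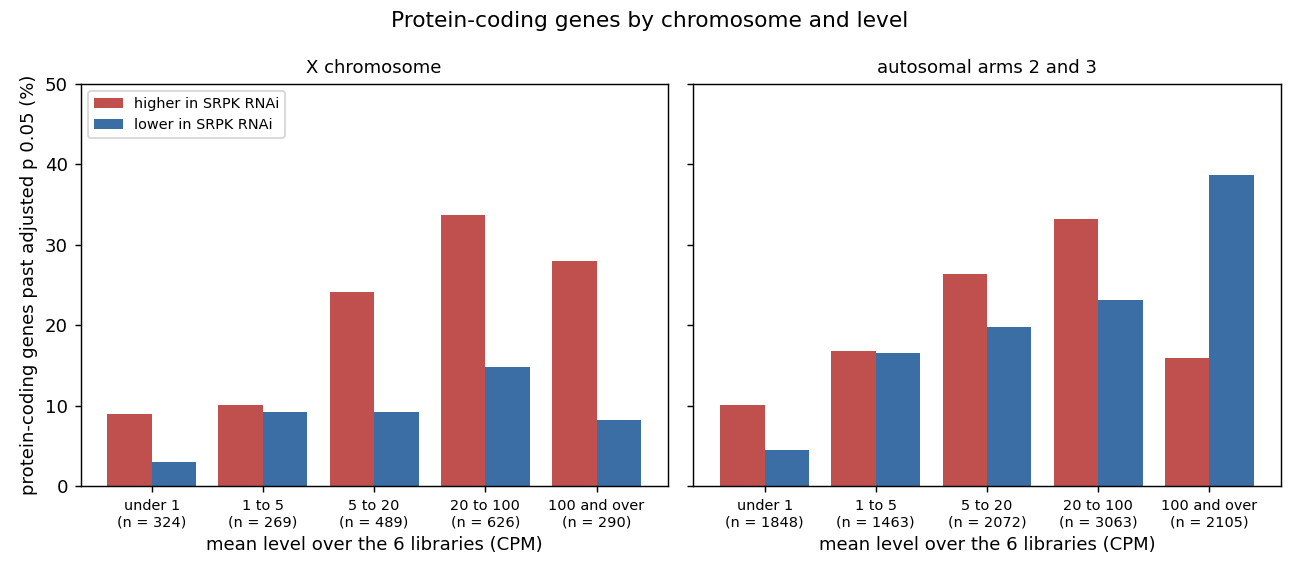
Share of protein-coding genes that were higher or lower in *SRPK* RNAi than in control (percent, edgeR adjusted p under 0.05), by mean level in CPM, for X-linked genes and genes of autosomal arms 2 and 3. At 100 CPM and over, 8.28% of X-linked and 38.6% of autosomal genes were lower.

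Somatic cell markers changed although bam-GAL4 is a germline driver. Of 23 muscle sheath genes, 17 fell (73.9%, against 21.1% of all genes) and 0 rose, with a median log2 fold change of -0.60. Their summed level was 3827, 3902 and 4619 CPM in *SRPK* RNAi, against 4819, 5433 and 6573 CPM in control. Without the gland-poor libraries 14 fell and 1 rose. *Mf*, the thick filament protein myofilin, stood at 20.4, 19.2 and 29.1 CPM in *SRPK* RNAi and 39.5, 50 and 49.4 CPM in control (log2 fold change -1.02, standard error 0.15, edgeR adjusted p = 0.000209). *Mlp60A*, a muscle LIM protein, had 6.20, 9.31 and 7.62 CPM in *SRPK* RNAi and 12.9, 18.9 and 14.9 CPM in control (log2 fold change -1.01, edgeR adjusted p = 0.00129). Fat body markers had 6 of 13 lower (46.2%, against 21.1% of all genes) and 0 higher. *Lsp1beta*, a larval serum protein that fat body stores, had 1.58, 1.36 and 1.98 CPM in *SRPK* RNAi and 6.12, 4.26 and 8.41 CPM in control. Blood cell markers were mixed, with 4 of 11 higher and 2 lower, and their summed level was 418, 551 and 546 CPM in *SRPK* RNAi and 563, 702 and 784 CPM in control. Both that fell, *Col4a1* and *vkg*, encode collagen IV, which fat body makes as well, and the call of *vkg* was lost without control replicate 2 (edgeR adjusted p = 0.0555) or 3 (0.103) and without both gland-poor libraries (0.0521). These 2 genes were named after their values were seen. *Col4a1* stood at 148, 239 and 231 CPM in *SRPK* RNAi and 284, 368 and 407 CPM in control (log2 fold change -0.78, edgeR adjusted p = 0.00388). *Pxn*, the matrix peroxidase of hemocytes, rose to 23.3, 20.9 and 21.8 CPM in *SRPK* RNAi, against 6.82, 6.99 and 10.7 CPM in control (log2 fold change 1.42, standard error 0.14, edgeR adjusted p = 1.38e-05). *Hml*, the hemocyte clotting factor hemolectin, stood at 43.6, 29.4 and 30.8 CPM in *SRPK* RNAi and 10.7, 13.3 and 23.9 CPM in control (log2 fold change 1.10, edgeR adjusted p = 0.00267).

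In the stem cell niche, the hub is the cluster of somatic cells that signals to germline and cyst stem cells. Of 4 hub genes, 3 fell. *upd1*, the JAK-STAT ligand made by the hub, fell to 9.92, 9.15 and 9.29 CPM in *SRPK* RNAi, against 29.0, 29.3 and 31.5 CPM in control, 31.6% of the control level (log2 fold change -1.66, standard error 0.07, edgeR adjusted p = 3.23e-08). *hh*, which signals to the cyst lineage, stood at 13.2, 14.2 and 11.7 CPM in *SRPK* RNAi and 18.4, 18.2 and 19.2 CPM in control (log2 fold change -0.51, edgeR adjusted p = 0.000396). *CadN*, the adhesion protein N-cadherin, had 36.9, 30.8 and 38.6 CPM in *SRPK* RNAi and 47.2, 49.1 and 45.3 CPM in control (log2 fold change -0.41, edgeR adjusted p = 0.00197). *Fas3*, another adhesion protein of the hub, had 90.2, 85.1 and 75.0 CPM in *SRPK* RNAi and 72.8, 73.2 and 64.1 CPM in control (log2 fold change 0.25), a call that was lost when single libraries were left out (edgeR adjusted p up to 0.108). Downstream of the ligand, *hop*, the JAK kinase, rose by 0.46. Another ligand, *upd3*, was low in both groups, at 0.932, 0.737 and 0.586 CPM in *SRPK* RNAi and 0.100, 0.171 and 0.204 CPM in control.

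Somatic cyst cells envelop the germ cells, and their 7 markers had 2 higher and 2 lower (28.6% each, against 20.3% and 21.1% of all genes). Without the gland-poor libraries 1 was higher and 3 lower. The call of *ptc*, which was lower, was lost when single libraries were left out (edgeR adjusted p up to 0.168). *so*, a homeodomain factor, fell to 19.2, 18.9 and 17.7 CPM in *SRPK* RNAi, against 32.3, 36.9 and 35.9 CPM in control (log2 fold change -0.91, standard error 0.09, edgeR adjusted p = 1.07e-05). *Egfr*, the receptor through which cyst cells sense the germline, rose to 23.6, 22.9 and 21.6 CPM in *SRPK* RNAi, against 16.2, 15 and 15.5 CPM in control (log2 fold change 0.54, edgeR adjusted p = 0.000101). Pigment cells and the terminal epithelium had 2 of 6 higher and 2 lower (33.3% each). Without the gland-poor libraries 2 were higher and 0 lower. *Nep4*, a metallopeptidase of the neprilysin family, stood at 249, 236 and 222 CPM in *SRPK* RNAi and 178, 164 and 175 CPM in control (log2 fold change 0.45, edgeR adjusted p = 0.000106).

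**Figure D5:**
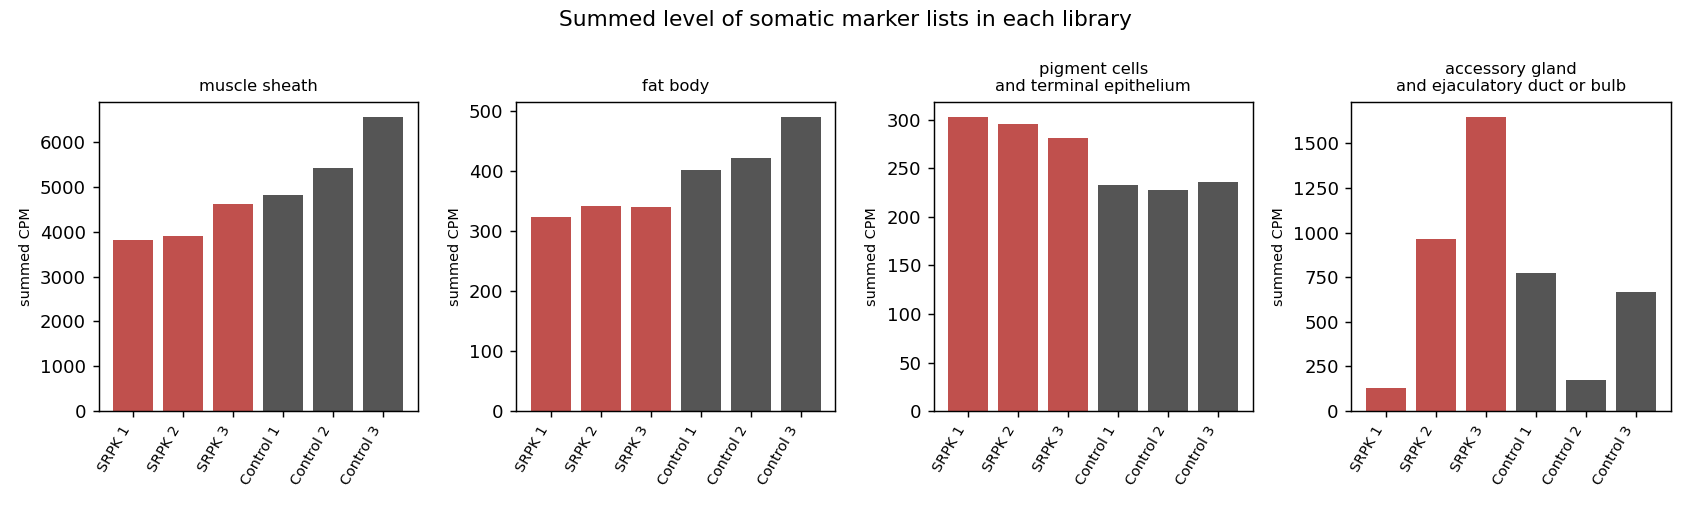
Summed level in CPM of somatic marker lists in each library, with *SRPK* RNAi libraries on the left and control libraries on the right of each panel. Muscle sheath genes sum to 3827 to 4619 CPM in *SRPK* RNAi and 4819 to 6573 CPM in control, while accessory gland markers spread over 131 to 1650 CPM in *SRPK* RNAi and 172 to 776 CPM in control.

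Stress pathways showed no common direction. Of 26 heat shock and chaperone genes, 4 rose (15.4%) and 3 fell (11.5%), both under the shares of all genes. Without the gland-poor libraries 2 rose and 2 fell. *Hsp60C*, a mitochondrial chaperonin, stood at 1730, 1928 and 1998 CPM in *SRPK* RNAi and 2375, 2590 and 2825 CPM in control (log2 fold change -0.46, edgeR adjusted p = 0.000686), and its paralog *Hsp60B*, known for its role in male fertility, at 990, 1175 and 1144 CPM in *SRPK* RNAi and 1377, 1461 and 1628 CPM in control (log2 fold change -0.43). The small heat shock gene *Hsp67Bc* rose to 8.87, 12 and 13.7 CPM in *SRPK* RNAi, against 5.86, 4.38 and 6 CPM in control. Of 15 genes of the unfolded protein and integrated stress responses 2 rose, among them the sensor kinase *Ire1* (log2 fold change 0.45), and 2 fell, among them the translational repressor *Thor* (-0.62). Of 8 p53 and cell death genes 2 rose and 2 fell (25% each, near the shares of all genes, and 0 and 1 without the gland-poor libraries). *Diap1*, the inhibitor of caspases, fell to 151, 146 and 154 CPM in *SRPK* RNAi, against 200, 200 and 205 CPM in control (log2 fold change -0.42, edgeR adjusted p = 2.11e-05). Antimicrobial peptides and other immune genes had 5 of 22 lower (22.7%, near the 21.1% of all genes) and 0 higher, and 3 lower without the gland-poor libraries. Detoxification genes had 32 of 94 lower (34%, against 21.1% of all genes) and 10 higher (10.6%), with a median log2 fold change of -0.35.

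Sex determination genes had 4 of 9 higher (44.4%, against 20.3% of all genes) and 1 lower. *her*, a zinc finger regulator of the pathway, rose to a mean of 13.7 ± 1.48 CPM in *SRPK* RNAi, against 6.24 ± 0.17 CPM in control (SD, n = 3 each, log2 fold change 1.13, standard error 0.10, edgeR adjusted p = 7e-06). *fru*, whose transcripts are spliced by sex in neurons, fell to 42.3, 44.3 and 50.7 CPM in *SRPK* RNAi, against 71.0, 70.5 and 73.9 CPM in control (log2 fold change -0.65, edgeR adjusted p = 0.00013). Chemosensory receptors, few of which are abundant in testis, had 27 of 209 higher (12.9%) and 21 lower (10%), both under the shares of all genes, and without the gland-poor libraries 16 were higher and 13 lower. Of 7 histone variant and centromere genes 1 rose, *cal1*, which loads the centromeric histone, at 87.9, 93.2 and 94.3 CPM in *SRPK* RNAi and 70.1, 70.6 and 72.3 CPM in control (log2 fold change 0.37, edgeR adjusted p = 6.45e-05). Of 18 tested genes of the *Stellate* locus and its repressor, many of them near-identical copies, 3 rose and 0 fell, with 7 higher without *SRPK* RNAi replicate 3, 2 without control replicate 2 and 8 by library totals.

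A small set of transcripts was read in *SRPK* RNAi and almost absent in control. For this set and for the largest rises above, the part of genetic background, the Y chromosome included, was not tested. At most 3 fragments over all 3 control libraries and a mean of at least 1 CPM in *SRPK* RNAi were found, with a call, for 15 genes, of which 7 were protein-coding, 6 noncoding and 2 pseudogenes, and 0 genes showed the opposite. The strongest was *Pp1-Y1* (chromosome Y from 9833 to 10786), a Y-linked protein phosphatase gene, at 10.2, 10.4 and 10.1 CPM in *SRPK* RNAi and 0, 0 and 0 CPM in control, at least 59.2-fold higher against the floor of 3 fragments per library. It was also read in *U2af38* RNAi, at 2.05, 1.67 and 1.81 CPM. *lncRNA:CR43949* had 5.71, 5.28 and 6.81 CPM in *SRPK* RNAi and 0, 0 and 0 CPM in control, at least 30.9-fold higher. *lncRNA:CR46414* had 8.79, 4.03 and 10.4 CPM in *SRPK* RNAi and 0, 0 and 0 CPM in control, at least 23.7-fold higher. *Or94a*, an odorant receptor, had 1.26, 1.63 and 0.902 CPM in *SRPK* RNAi and 0, 0 and 0 CPM in control, and 15.3, 14.7 and 15.3 CPM in *U2af38* RNAi. These genes were named after their values were seen.

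*U2af38* RNAi, in which the small subunit of the U2 auxiliary factor is knocked down, was set directly against *SRPK* RNAi. In this contrast 37.6% of all tested genes were higher and 42.3% lower in *SRPK* RNAi. Of the 15 largest rises, 9 were higher and 2 lower in it than in *U2af38* RNAi, and 4 did not pass. Of the 15 largest falls, 1 was higher, 10 lower and 4 did not pass. Both sets were picked with the same *SRPK* RNAi libraries that enter this contrast, which favours such a split, so these counts are descriptions only. Sperm genes were higher in *SRPK* RNAi than in *U2af38* RNAi for 17 of 18 cup and comet genes, 11 of 11 sperm chromatin genes and 11 of 11 sperm tail genes. The paper reports that *U2af38* RNAi germ cells arrested as spermatocytes, whereas *SRPK* RNAi germ cells looked normal but gave immotile sperm. In this contrast a difference in the cells present and a difference in RNA per cell cannot be told apart. *SRPK* itself averaged 67.2 CPM in *SRPK* RNAi and 619 CPM in *U2af38* RNAi.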

How the data were processed

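Total RNA from testes was sequenced in 9 libraries, 3 per genotype, which the labels call biological replicates. P-values measure the spread between these samples. The authors aligned reads to dm6 with STAR 2.7.1a and deposited raw counts of fragments per gene (featureCounts 1.6.2, FlyBase 6.37, reverse-stranded). Fragments aligned to several places or shared by genes on a strand were left out under the table's settings, and genes with near-identical copies are uncertain. 0 value columns were left without a sample.

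The 2 lanes of each library were summed, giving 18497748 to 30002574 fragments. Per degree of freedom, chi-square values were 1.29 to 1.37 between lanes of the 6 libraries and 9.72 to 39.2 between replicates. Genes were filtered with filterByExpr, scaled with TMM and tested with edgeR 4.0.16 in R 4.3.3 (quasi-likelihood F test, Benjamini-Hochberg adjustment, threshold 0.05, all 9 libraries, common dispersion 0.0153). Standard errors are approximate, taken as the size of the log2 fold change over the root of the F statistic. The floor of 3 fragments covers counting error only. Symbols and types came from Ensembl 115, which held 17512 of 17575 genes. The test was also run on counts simulated from control means with the common dispersion (12543 genes, 168 changed by at least 2-fold). There 92.9% of the changed genes passed, and 7.14% of 168 calls were false. In the data far more genes were called and most changes were small, so these rates need not hold for its calls. DESeq2 1.42.0 served as an alternative. Summaries and plots used Python 3.11.15, pandas 2.3.3, numpy 2.4.6 and matplotlib 3.10.9.

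The 47 gene lists and the comparison were chosen with earlier results of these data known. Named were *SRPK*, the 15 largest rises and 15 largest falls (protein-coding, off the Y, past 0.05, mean of at least 1 CPM, no overlap), and members of each list. Lists with 5 or fewer tested members had all of them named, called or not, and from longer lists up to 4 called members with the largest changes were taken. Members that lost the call when a library was left out are named only with that value, and others were chosen after their values were seen. A planned list of RS-rich proteins was not analysed here. Alternatives were other filters and scalings, the replicate block, 2 genotypes only, each library or lane left out, a minimum log2 fold change of 1 and DESeq2.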

Additional observations from a re-analysis of the deposited data

How the results depend on the processing

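No named gene that was called changed direction under any alternative tried, and 0 genes called in both were called in opposite directions. The balance of higher and lower calls, however, turned with the scaling for many groups. Among them were respiratory subunits, proteasome subunits, hnRNPs, chemosensory receptors and autosomal genes of 100 CPM and over. The balance also turned for all tested genes together. It did so too for autosomal protein-coding genes of 5 CPM and over, and for protein-coding genes with introns at that level. Counts of calls were 2549 to 3149 higher and 2587 to 3029 lower with each library left out, 2087 and 2473 without both gland-poor libraries, and 2663 and 3356 with DESeq2. Requiring a log2 fold change of at least 1 left 569 higher and 802 lower genes, 144 lower noncoding genes, 4 lower muscle genes, 1 lower sperm mitochondrial paralog, and 0 sperm chromatin, 0 dynein chain, 0 core spliceosome and 0 exon junction complex genes. With it 4 X-linked genes were higher, 6 X-linked lower and 166 autosomal lower. Scaling by library totals gave 7 lower dynein chain genes, 644 higher and 72 lower X-linked genes and 1272 lower autosomal genes, and scaling on ribosomal protein genes 257 higher X-linked genes. Without both gland-poor libraries 9 dynein chain genes were lower, and 270 X-linked genes were higher and 102 lower. With each library left out, sperm chromatin genes lower ranged over 5 to 9, core spliceosome genes higher over 18 to 25 and dynein chain genes lower over 11 to 15. Of 203 named genes that were called, 34 lost the call with some library left out and 38 without both gland-poor libraries. Same-numbered *SRPK* RNAi and control libraries had deviations that correlated at -0.414, -0.282 and 0.442, so the numbers were not taken to pair the samples, and the replicate block gave 3065 higher and 3266 lower genes. Depth limits genes of under 1 CPM, and of 2176 protein-coding ones 9.97% passed as higher and 4.32% as lower.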
